A study of Mus musculus with 16 samples.

Results

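Polyamine synthesis and turnover was followed through 8 genes in mouse embryonic stem cells (ESCs): Odc1, Amd1, Srm and Sms, which make polyamines, Sat1 and Smox, which break them down, and Oaz1 and Azin1, which set the activity of ornithine decarboxylase. The genes were chosen by name as the core of the pathway, and these 8 of the 35968 genes in the tables were described over all 16 libraries. RNA was measured by poly(A) RNA-seq in 4 groups of 4 libraries: wild-type ESCs in normal culture, wild-type ESCs in paused culture, Dgcr8 knockout (KO) ESCs in normal culture and Dgcr8 KO ESCs in paused culture. Paused culture means growth under mTOR inhibition (mTORi), mTOR being a nutrient-sensing kinase, and the labels give day 2 and 800000 cells for every group. DGCR8, spelled DGRC8 in the sample titles, binds primary microRNA transcripts for DROSHA to cut, and without it canonical microRNAs are not made. The labels do not name the inhibitor, the deleted part of Dgcr8 or the number of clones, and they do not say whether replicates were separate cultures, so the p-values measure the spread between these libraries, which may be technical. In bulk RNA of this kind, fewer cells with a transcript and less of it per cell cannot be told apart.

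Polyamines (putrescine, spermidine and spermine) are small cations that bind nucleic acids and are needed for growth and translation. ODC1 makes putrescine from ornithine, and spermidine synthase (SRM) and spermine synthase (SMS) extend it with aminopropyl groups that come from S-adenosylmethionine decarboxylated by AMD1. SAT1 acetylates spermidine and spermine for export or oxidation, SMOX oxidises spermine directly, antizyme (OAZ1) takes ODC1 to the proteasome, and antizyme inhibitor (AZIN1), a relative of ODC1 without enzymatic activity, binds antizyme in its place. Odc1 is a textbook target of MYC, ODC1 and AMD1 are known to support ESC self-renewal, and mTORC1 is known to act on AMD1 protein.

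Some of this control is written in the RNA itself. The Oaz1 message has a stop codon inside its coding sequence that ribosomes pass by a shift of the reading frame when polyamines are high, and the annotation handles the shift by leaving 1 base out of the transcript Oaz1-207. The stretch around it, chr10:80828271-80828319 on the plus strand (GRCm38), is shown because the 2 main Oaz1 transcripts differ at that base. They also differ in start and in length, with 538 bases for Oaz1-205 and 1044 for Oaz1-207. The stretch is printed from Oaz1-205 with the left-out base, at position 80828295, in capitals.
Oaz1 frameshift site: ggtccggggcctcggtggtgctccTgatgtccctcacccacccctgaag
With the base kept, the reading frame of Oaz1-207 met TGA at that very base after 68 codons, and without it the frame ran for 227 codons.

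Sat1 has an alternative exon of 110 bases, chrX:155215121-155215230 on the minus strand (GRCm38), between its annotated exons 3 and 4. Its inclusion is known to send the message to nonsense-mediated decay, and polyamines are known to favour skipping of the exon. Here are the 24 bases of exon 3 and the 24 bases that follow in the coding transcript Sat1-201, where exon 3 joins position 155214134, and in the decay transcript Sat1-207, where it joins the alternative exon. Capitals mark the in-frame stop codon that the alternative exon brings.
Sat1-201 junction: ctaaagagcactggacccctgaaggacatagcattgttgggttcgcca
Sat1-207 junction: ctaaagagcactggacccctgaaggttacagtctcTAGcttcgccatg
The stop starts at base 12 of the exon and leaves 71 codons before it, against 171 in Sat1-201.

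Promoters are shown for Odc1 and Amd1. Both genes fell in both genotypes, as did Smox and Oaz1, whose windows were also found but are not printed. RefSeq promoter windows (GRCm38.p6, 250 bases before to 50 after a start) were found for 6 of the 8 genes (Odc1, Amd1, Sms, Sat1, Smox and Oaz1), 7 windows in all. The 250 bases before the RefSeq start are shown, with GC boxes (GGGCGG on either strand) in capitals. They lie at chr12:17544623-17544872 on the plus strand for Odc1 and chr10:40302189-40302438 on the minus strand for Amd1. The annotation used for the counts starts Odc1 at 17544794, so the last bases of the Odc1 stretch lie within the gene as annotated there.
Odc1 promoter: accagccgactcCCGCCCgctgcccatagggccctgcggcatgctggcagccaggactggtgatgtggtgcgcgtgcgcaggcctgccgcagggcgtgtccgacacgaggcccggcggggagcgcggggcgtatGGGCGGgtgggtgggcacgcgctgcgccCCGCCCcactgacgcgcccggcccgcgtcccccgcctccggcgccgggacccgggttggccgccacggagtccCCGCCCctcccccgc
Amd1 promoter: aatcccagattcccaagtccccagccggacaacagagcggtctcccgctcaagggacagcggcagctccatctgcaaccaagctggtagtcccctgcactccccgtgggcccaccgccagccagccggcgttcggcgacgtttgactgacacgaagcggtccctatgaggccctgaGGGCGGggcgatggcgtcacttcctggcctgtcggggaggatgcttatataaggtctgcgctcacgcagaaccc
Odc1 held 4 GC boxes and Amd1 held 1, while the window of Smox held 6 and that of Oaz1 held 0. GC boxes were found in 5 of the 7 windows and in 35.7% of all 32851 windows. The MYC E-box CACGTG was in 1 of the 7, a window of Sms, against 7.15% of all, and TATAAA was in 1, that of Oaz1, against 13.6%. No window held TGATGNAA, a match to the ATF4 and C/EBP element, which 3.97% of all windows hold. Each motif was searched on both strands, and a match is a description of the letters only.

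The libraries held 88377380 to 116646028 estimated counts each. Pluripotency markers summed to 6506 to 7255 CPM (counts scaled to a library total of 1e+06) in every library. Single markers in this sum moved apart: Esrrb was 553 CPM in normal wild-type and 1159 CPM in paused KO cells, and Dppa5a 1114 and 688 CPM. Fibroblast markers summed to 13.7 to 19.0 CPM in wild-type and 27.3 to 44.1 CPM in KO libraries, with Thy1 the highest of them and Col3a1, Dcn, Lum and Postn near 0. Thy1 and Pdgfrb were the higher ones in KO cells. In normal culture Col1a1 was 1.88 CPM in wild-type and 1.48 CPM in KO cells, and Col1a2 0.41 and 0.15 CPM. Endoderm markers summed to 21.7 to 34.7 CPM in wild-type and 6.57 to 16.1 CPM in KO libraries, and trophoblast markers to 16.3 to 19.3 and 5.73 to 11.8 CPM. Their part in the results was not tested. Dgcr8 itself was 47.3 ± 1.81 CPM in wild-type and 250 ± 4.14 CPM in KO cells in normal culture (SD, n = 4), so its RNA was higher in the KO libraries. With the deleted part not given in the sources used here, that level does not check the labels. The 4 Y-linked genes examined summed to 193 to 225 CPM in wild-type and 3.07 to 7.41 CPM in KO libraries. Kdm5d made up most of the KO sum, at 2.38 CPM in normal and 5.41 CPM in paused culture, against 4.03 and 6.91 CPM in wild-type cells. As group means Ddx3y, Eif2s3y and Uty were at least 32.7 CPM in wild-type and at most 0.53 CPM in KO cells. The KO and wild-type lines therefore differ in more than Dgcr8, and the knockout and the line cannot be told apart.

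Within a library the 8 genes spanned a wide range of TPM (transcript abundance corrected for length and library total), the scale used here to compare genes. In wild-type cells in normal culture Oaz1 (663 ± 27.8 TPM, SD, n = 4) and Odc1 (662 ± 38.1) stood highest and overlapped. Srm followed at 443 ± 23.2, then Amd1 at 115 ± 7.63, Sms at 80.8 ± 4.43, Azin1 at 63.8 ± 6.58, Sat1 at 36.5 ± 1.69 and Smox at 11.4 ± 3.09 TPM. The other neighbours in this order did not overlap between libraries, although Sms and Azin1 came close (75.2 to 84.5 and 57.2 to 72.9 TPM). In paused culture Azin1 stood above Sms in both genotypes, at 88.9 ± 4.51 and 76.6 ± 4.94 TPM in wild-type and 81.3 ± 1.42 and 49.7 ± 1.51 TPM in KO cells. In KO cells this was already the order in normal culture, with Azin1 at 56.2 ± 5.63 and Sms at 35.2 ± 2.03 TPM. The Sms values here leave out Sms-ps, a pseudogene copy described below. Its counts amounted to 26.6% to 85.6% of those of Sms over the groups. The place of Sms in these orders therefore holds for Sms alone and was not tested with the copy added. TPM is not corrected for composition: over 13300 genes the median log2 TPM difference was 0.28 for pausing in wild-type, 0.19 for pausing in KO cells and 0.16 for KO against wild type in normal culture. Changes between groups are therefore given below in CPM with trimmed-mean scaling, and TPM serves only for shares and ratios within a library.

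Pausing lowered most of the pathway. Of the 8 genes, 6 fell and 1 rose in wild-type cells (adjusted p under 0.05), where 27.5% of the 18944 genes tested fell and 33.3% rose. In KO cells 6 fell and 1 rose, where 32.8% of all genes fell and 34.4% rose. Some of these calls were weak, as given below. The KO fall of Sat1 and the wild-type rise of Azin1 were small, had overlapping groups and were lost when some single libraries were left out. The KO rise was that of Sms, and it turned to a fall with a pseudogene copy added. The median log2 fold change of the 8 was -0.50 in wild-type and -0.69 in KO cells, against 0.04 and 0.02 over all genes. Odc1, Amd1, Srm, Smox and Oaz1 fell in both genotypes, and the values of each are given below. The 2 pausing comparisons use separate libraries.

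**Figure D1:**
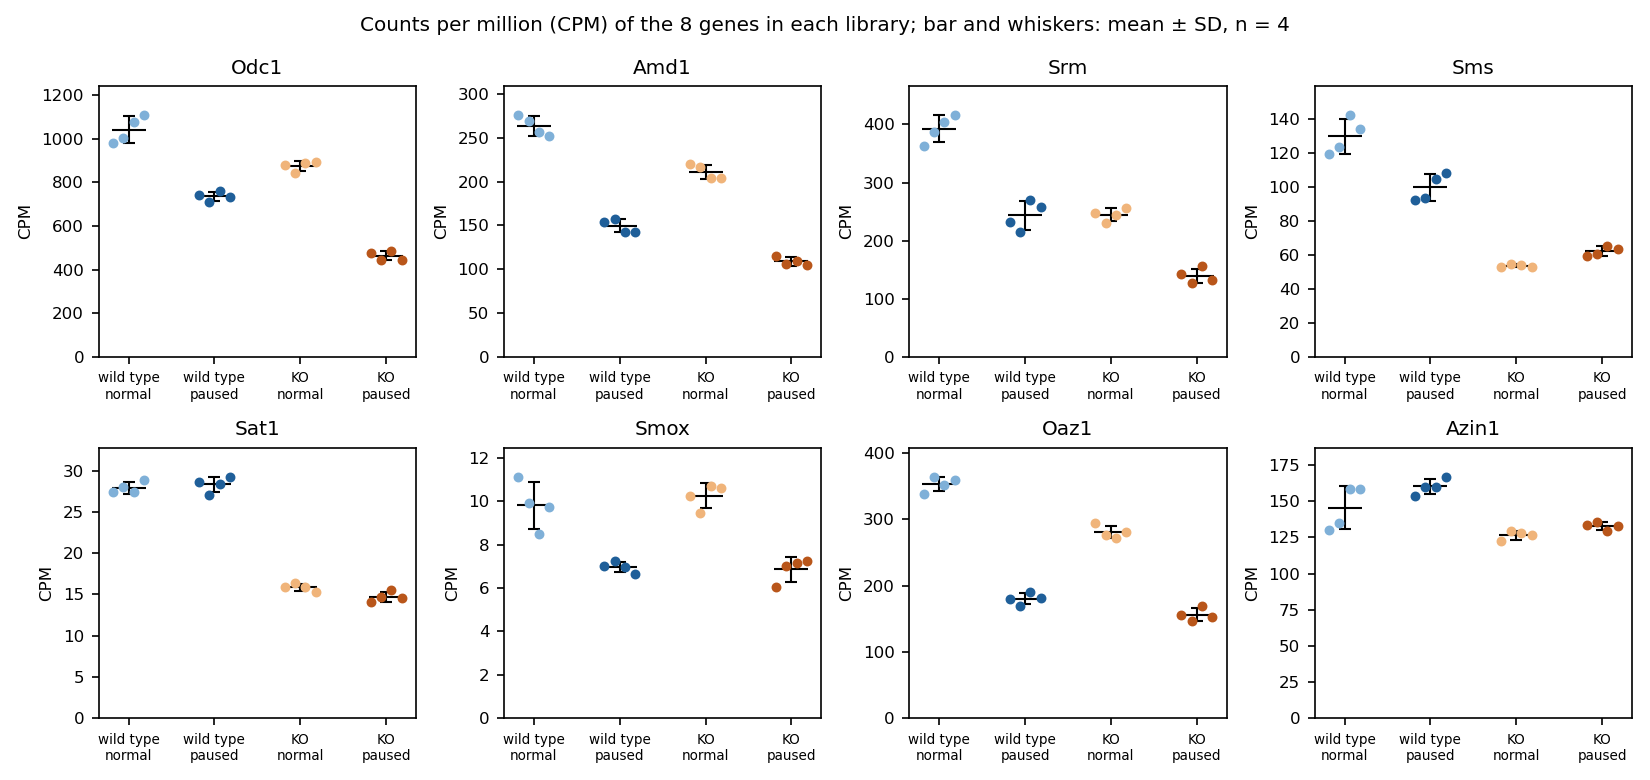
CPM (vertical axes, linear, from 0) of the 8 genes in each of the 16 libraries, 1 point per library, with the mean and SD of each group of 4. Odc1, Amd1, Srm, Smox and Oaz1 sit lower in paused than in normal culture in both genotypes, and Sat1 sits near 28 CPM in wild-type and near 15 CPM in KO cells whatever the culture.

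Odc1, the entry enzyme (chromosome 12, 17544794 to 17551505, plus strand), fell in both genotypes and fell further in KO cells. It was 981, 1002, 1075 and 1109 CPM in normal and 744, 710, 760 and 733 CPM in paused wild-type libraries. In KO libraries it was 878, 843, 888 and 893 CPM in normal and 477, 445, 484 and 445 CPM in paused culture. All 4 paused libraries were below all 4 normal ones in each genotype, and the paused KO libraries were the lowest of all. The log2 fold change of pausing was -0.50 (SE 0.04, adjusted p = 6.1e-09) in wild-type and -0.92 (SE 0.04, adjusted p = 1.6e-12) in KO cells. The fall was larger in KO cells, by -0.42 on the log2 scale (SE 0.06, adjusted p = 1.9e-05). That difference of responses was called, in either direction, for 2 of the 8 genes and for 41.9% of all genes.

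Amd1, which supplies the aminopropyl donor (chromosome 10, 40287458 to 40302186, minus strand), fell in both genotypes. Wild-type libraries held 276, 270, 256 and 253 CPM in normal and 154, 157, 143 and 143 CPM in paused culture. KO libraries held 220, 217, 204 and 204 CPM and then 116, 106, 110 and 105 CPM. No paused library reached a normal one. The log2 fold changes were -0.82 (SE 0.04, adjusted p = 1.7e-11) and -0.95 (SE 0.04, adjusted p = 1.9e-12), and their difference was -0.13 (95% interval -0.26 to -0.0049, adjusted p = 0.089). Amd2, a gene on the same chromosome that is 99.56% identical over 3202 bases, held 33.5 ± 2.12 and 16.9 ± 0.70 CPM in wild-type normal and paused culture and 23.9 ± 0.84 and 11.4 ± 0.82 CPM in KO cells (SD, n = 4). Reads of Amd1 and Amd2 are hard to tell apart, and both moved the same way.

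Srm, which makes spermidine (chromosome 4, 148591503 to 148594993, plus strand), ranged over 363 to 416 CPM in normal and 215 to 270 CPM in paused wild-type libraries. In KO cells the ranges were 231 to 257 and 127 to 156 CPM. Paused wild-type and normal KO libraries overlapped, and paused KO libraries lay below both. Srm fell by 0.69 on the log2 scale (SE 0.07, adjusted p = 1.8e-07) in wild-type and by 0.81 (SE 0.07, adjusted p = 1.8e-08) in KO cells. The difference between these responses was -0.12 (95% interval -0.33 to 0.09, adjusted p = 0.34).

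Sms, which makes spermine (chromosome X, 157443855 to 157492287, minus strand), was the synthesis gene whose direction depended on how reads were assigned. In wild-type libraries Sms alone was 119, 123, 142 and 134 CPM in normal and 92.5, 93.5, 105 and 108 CPM in paused culture. In KO libraries it was 53.0, 54.6, 54.2 and 52.8 CPM in normal and 59.2, 60.4, 65.2 and 63.6 CPM in paused culture. Every KO library was below every wild-type one, and within KO cells the paused libraries were the higher ones. The log2 fold change of pausing was -0.38 (SE 0.06, adjusted p = 1.1e-05) in wild-type and 0.21 (SE 0.06, adjusted p = 0.0031) in KO cells, a difference of 0.59 (SE 0.08, adjusted p = 1.4e-05).

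Sms-ps, a processed pseudogene also on the X chromosome, is 100% identical to Sms over 1101 bases, and its counts amounted to 54.5%, 26.6%, 85.6% and 44.6% of those of Sms in the 4 groups, in the order given in the opening. In wild-type normal libraries Sms-ps was 77.4, 76.8, 61.4 and 65.5 CPM, highest in the 2 libraries where Sms was lowest, and the sum of both was 197, 200, 203 and 199 CPM. With the pseudogene added, Sms fell under pausing by 0.66 (SE 0.04, adjusted p = 3.3e-10) in wild-type and by 0.15 (SE 0.04, adjusted p = 0.0071) in KO cells. The fall in KO cells replaces the rise seen for Sms alone. With only protein-coding transcripts counted, the KO value was 0.00 (SE 0.07, adjusted p = 0.96). The difference of the responses was 0.52 (SE 0.06, adjusted p = 4.4e-06) with the pseudogene and 0.48 (SE 0.10, adjusted p = 0.00068) with coding transcripts alone. Thus the sign of the KO response was not settled by these counts, while the difference between the responses was called, with the same sign, under all 27 alternatives tried for it.

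**Figure D2:**
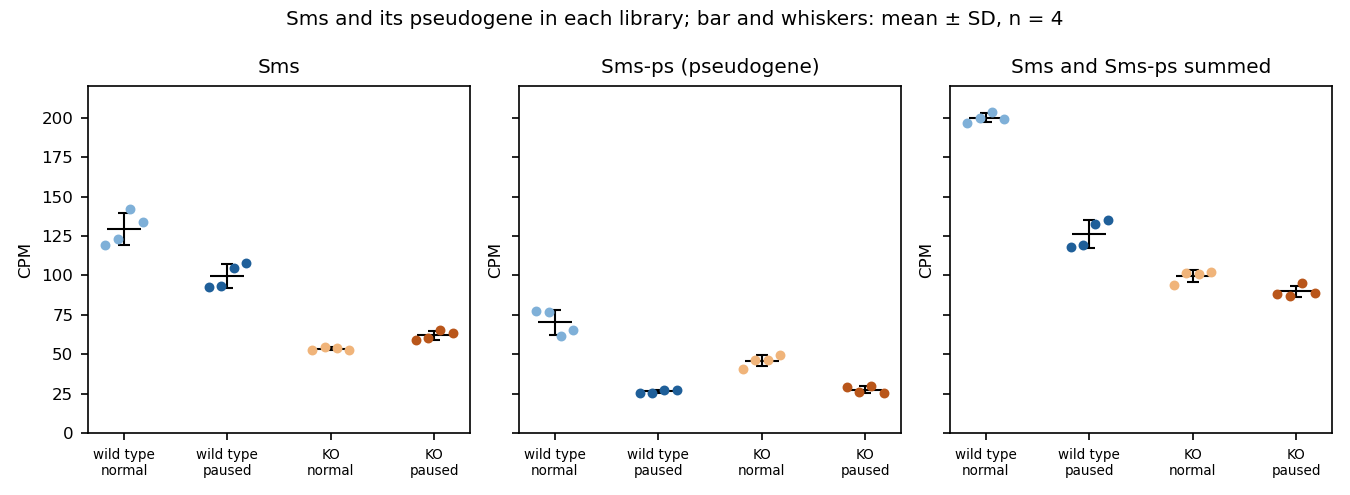
CPM of Sms, of its pseudogene Sms-ps and of their sum (vertical axis, linear, shared by the 3 panels) in each library, with the mean and SD of each group of 4. Sms alone is higher in paused than in normal KO libraries, and the sum in KO cells is 99.5 ± 3.78 CPM in normal and 89.9 ± 3.62 CPM in paused culture.

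Among the breakdown genes, Sat1 (chromosome X, 155213132 to 155216449, minus strand) did not pass the test over all its transcripts in wild-type cells, and Smox fell. With coding transcripts alone Sat1 fell by 0.23 on the log2 scale (SE 0.05, adjusted p = 0.00045) in wild-type and by 0.29 (SE 0.05, adjusted p = 4.9e-05) in KO cells. In wild-type libraries Sat1 was 27.4, 28.0, 27.4 and 28.9 CPM in normal and 28.7, 27.0, 28.4 and 29.3 CPM in paused culture, and the groups overlapped. In KO libraries it was 15.9, 16.4, 15.9 and 15.3 CPM and then 14.1, 14.7, 15.6 and 14.6 CPM, again with overlap. The log2 fold change of pausing was 0.02 (95% interval -0.07 to 0.11, adjusted p = 0.70) in wild-type and -0.11 (95% interval -0.20 to -0.01, adjusted p = 0.039) in KO cells. The KO call was lost without replicate 2 or 3 of wild-type normal, without replicate 1, 2 or 3 of KO normal or without replicate 1, 2 or 4 of KO paused culture, with values between -0.13 and -0.08 over the 16 omissions.

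Smox (chromosome 2, 131491496 to 131525922, plus strand) had the lowest level of the 8, 8.49 to 11.1 CPM in normal and 6.66 to 7.26 CPM in paused wild-type libraries. It was 9.45 to 10.7 and 6.04 to 7.27 CPM in KO libraries. The groups did not overlap within either genotype, and the 2 paused groups lay on top of each other. Smox fell by 0.49 (SE 0.08, adjusted p = 3e-05) in wild-type and by 0.58 (SE 0.08, adjusted p = 3.8e-06) in KO cells.

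Of the regulators of ornithine decarboxylase, Oaz1 fell under pausing while Azin1 changed little by CPM. Oaz1, the antizyme (chromosome 10, 80826656 to 80829290, plus strand), held 339, 364, 353 and 360 CPM in the normal wild-type libraries, against 180, 170, 190 and 181 CPM in the paused ones. KO libraries held 295, 277, 273 and 281 CPM and then 157, 146, 169 and 153 CPM. The paused libraries were all far below the normal ones. Oaz1 had the largest fall of the 8 genes in wild-type cells, -0.97 (SE 0.04, adjusted p = 2.6e-12), and fell by 0.85 (SE 0.04, adjusted p = 9.2e-12) in KO cells.

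Azin1, the antizyme inhibitor (chromosome 15, 38487427 to 38519266, minus strand), held 130, 135, 158 and 158 CPM in the normal wild-type libraries, against 154, 160, 160 and 167 CPM in the paused ones. Replicates 1 and 2 of normal culture were low and replicates 3 and 4 overlapped the paused group. The log2 fold change was 0.14 (SE 0.05, adjusted p = 0.03), which passed the threshold. It was 0.24 (adjusted p = 0.00026) over replicates 1 and 2 alone and 0.04 (adjusted p = 0.35) over replicates 3 and 4 alone. The call was also lost without replicate 1 or 2 of normal culture (0.09 and 0.08) or without replicate 2, 3 or 4 of paused culture (0.14, 0.14 and 0.12), and with DESeq2 size factors it was 0.11 (adjusted p = 0.087). In KO cells Azin1 ranged over 123 to 129 CPM in normal and 129 to 136 CPM in paused culture, with a log2 fold change of 0.07 (95% interval -0.04 to 0.18, adjusted p = 0.25). It passed there with length-scaled counts (0.32, adjusted p = 0.00021) or coding transcripts alone (0.18, adjusted p = 0.017).

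**Figure D3:**
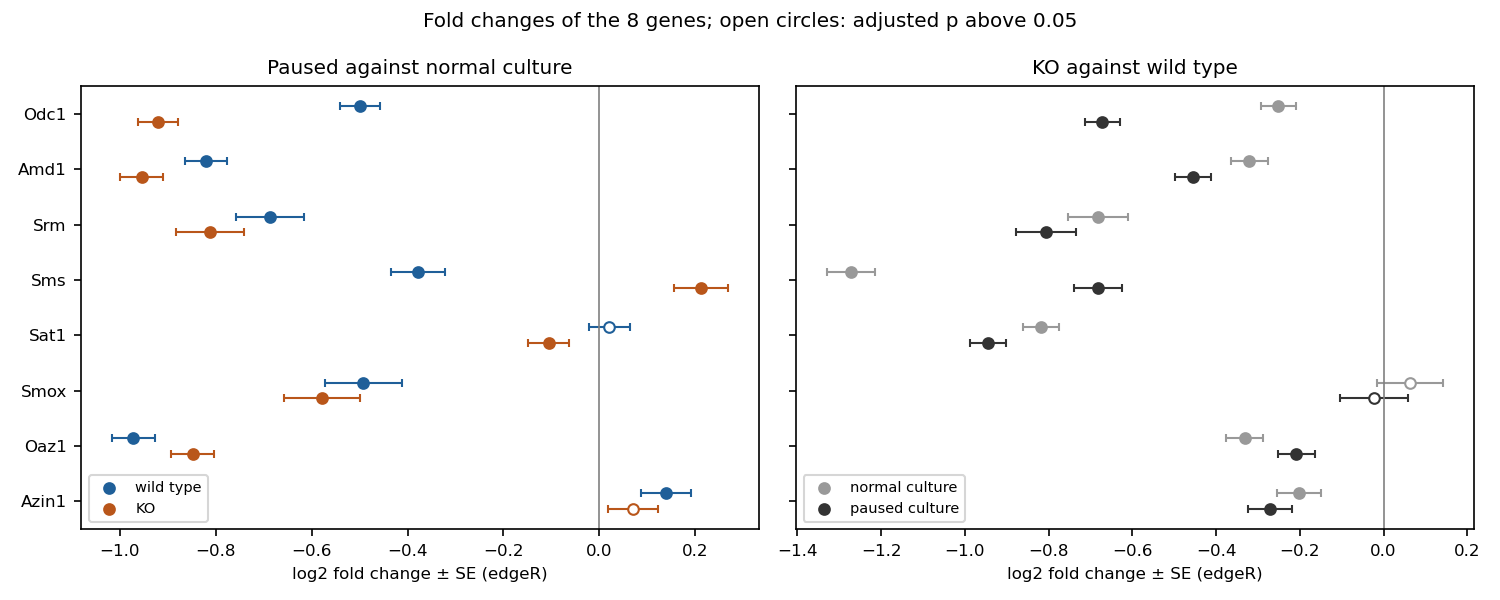
Log2 fold changes with SE (horizontal axes) of the 8 genes from the edgeR fit, for paused against normal culture in each genotype (left) and for KO against wild type in each culture (right). Filled circles passed an adjusted p of 0.05, and on the left Odc1 and Sms are the genes whose 2 values lie farthest apart.

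Ratios within a library put these changes side by side. In wild-type cells Odc1 TPM over Oaz1 TPM was 0.999 ± 0.057 in normal and 1.37 ± 0.020 in paused culture (SD, n = 4). In KO cells it was 1.06 ± 0.042 and 1.03 ± 0.022. The wild-type groups did not overlap (0.934 to 1.05 and 1.36 to 1.40), and the KO groups did (1.01 to 1.10 and 1.00 to 1.05). Oaz1 TPM over Azin1 TPM went from 10.5 ± 1.03 to 4.61 ± 0.25 under pausing in wild-type and from 10.1 ± 1.18 to 4.44 ± 0.17 in KO cells. The size of this change depends on the scale: in KO cells Azin1 went from 56.2 to 81.3 TPM but from 126 to 133 CPM. The paused groups of the 2 genotypes overlapped in this ratio (4.43 to 4.97 and 4.25 to 4.65). Odc1 TPM over Sat1 TPM went from 18.1 ± 0.63 to 12.8 ± 0.20 in wild-type and from 26.8 ± 1.40 to 15.6 ± 0.78 in KO cells. These ratios are of RNA, and protein was not measured.

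The KO cells held less RNA of most of the pathway. In normal culture 7 of the 8 genes were lower in KO than in wild-type cells and none was higher, where 34.1% of all genes were lower and 34.1% higher. In paused culture 7 were again lower and none higher, where 34.5% of all genes were lower and 30.8% higher. The median log2 difference of the 8 was -0.33 in normal and -0.56 in paused culture, against -0.03 and -0.03 over all genes. These comparisons use the same 16 libraries as the pausing comparisons, so the values are given side by side and not as separate evidence.

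Sms was lower by -1.27 (SE 0.06, adjusted p = 1e-12) in normal and -0.68 (SE 0.06, adjusted p = 5.4e-09) in paused culture, and with the pseudogene added by -1.01 (SE 0.04) and -0.49 (SE 0.04). Sat1 was lower by -0.82 (SE 0.04, adjusted p = 8.8e-12) and -0.94 (SE 0.04, adjusted p = 1.7e-12). Srm was lower by -0.68 (SE 0.07, adjusted p = 1.6e-07) and -0.81 (SE 0.07, adjusted p = 2.3e-08). Sms and Sat1 are both on the X chromosome, where the median of 290 genes was -0.07 in normal and -0.03 in paused culture, against 0.09 and 0.02 over 9230 autosomal genes. Within 5 Mb of Sms the median of 18 genes was -0.03 and 0.11, and within 5 Mb of Sat1 that of 30 genes was -0.01 and -0.01. The part of these shifts in the Sms and Sat1 values was not tested.

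Odc1 was lower by -0.25 (SE 0.04, adjusted p = 3.1e-05) in normal and -0.67 (SE 0.04, adjusted p = 1e-10) in paused culture. Amd1 was lower by -0.32 and -0.45, Oaz1 by -0.33 and -0.21 and Azin1 by -0.20 and -0.27, all with SE of 0.04 or 0.05 and adjusted p of at most 0.0024. The Azin1 value in normal culture was -0.07 (adjusted p = 0.16) over replicates 1 and 2 and -0.32 (adjusted p = 8.1e-07) over replicates 3 and 4. Smox did not pass in either culture, at 0.06 (95% interval -0.10 to 0.23, adjusted p = 0.50) and -0.02 (95% interval -0.19 to 0.15, adjusted p = 0.82).

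Transcripts of the 8 genes were compared for their share of the gene. Of 29 transcripts that made up at least 5% of their gene in some group, 28 could be tested. Pausing changed the use of 4 of the 28 in wild-type cells, where 6.20% of all 58850 tested transcripts changed, and of 6 in KO cells, where 9.46% did. The 58850 include transcripts of low counts. Of 34383 with a mean of at least 50 counts, 3628 changed in wild-type and 5507 in KO cells, which are larger shares than among the 58850. The 4 and 6 of 28 lie nearer to these larger shares. Between the lines 0 changed in normal culture by edgeR's test (2 had an unadjusted p under 0.05), where 4.22% of all transcripts did, and 1 in paused culture, where 4.29% did. Leaving out 1 replicate number at a time left 1 to 3 of the wild-type and 2 to 4 of the KO pausing calls, while the share of all transcripts called fell to between 3.72% and 4.63% in wild-type and between 6.18% and 7.01% in KO cells.

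The make-up of Sat1 shifted under pausing. Its coding transcript Sat1-201 went from 78.9% ± 1.48 to 65.7% ± 1.61 of Sat1 TPM in wild-type cells (SD, n = 4). In KO cells it went from 80.7% ± 1.86 to 68.2% ± 2.31. Its relative use of -0.27 in wild-type and -0.24 in KO cells did not pass the test of use (adjusted p = 0.33 and 0.36). The transcripts that hold the alternative exon shown above, Sat1-207 and the retained-intron transcript Sat1-206, together made up 8.72%, 7.06%, 5.62% and 6.95% in normal and 13.5%, 12.2%, 14.6% and 15.8% in paused wild-type libraries. In KO libraries they made up 7.60%, 7.14%, 7.63% and 7.42% and then 13.5%, 14.6%, 12.7% and 11.5%. No paused library overlapped a normal one in either genotype. This sum was chosen after the values were seen and carries no test.

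Of its parts, Sat1-206 gained use by 0.996 on the log2 scale relative to the rest of the gene in wild-type cells (adjusted p = 0.018). The gain was 0.85 in KO cells (adjusted p = 0.049). Sat1-207 was not among the transcripts above 5%, and its changes of 0.91 in wild-type and 0.64 in KO cells did not pass (adjusted p = 0.33 and 0.54). The Sat1-206 calls did not hold without replicate 2, 3 or 4 in wild-type cells (adjusted p of 0.077, 0.12 and 0.12) or without any 1 of the 4 replicate numbers in KO cells (adjusted p from 0.099 to 0.25), while its gain stayed between 0.76 and 1.13. Sat1-205, another retained-intron transcript, gained 0.95 in KO cells (adjusted p = 0.04), a call lost without any 1 replicate number (adjusted p from 0.085 to 0.19). Retained-intron transcripts of all genes went from 2.80% ± 0.21 to 3.21% ± 0.012 of counts in wild-type and from 2.77% ± 0.033 to 3.57% ± 0.11 in KO cells. Of 14668 such transcripts 3.60% gained and 2.14% lost use under pausing in wild-type cells, and 9.75% and 1.60% in KO cells. Their part in the Sat1 values was not tested.

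**Figure D4:**
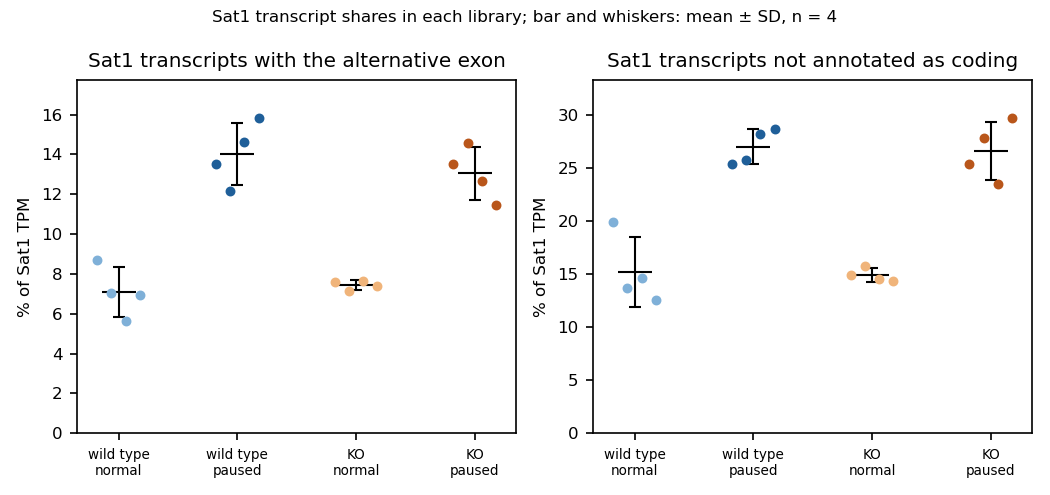
Share of Sat1 TPM (vertical axes, percent, from 0) in transcripts that hold the alternative exon (left) and in all transcripts not annotated as coding (right), 1 point per library with the mean and SD of each group of 4. Both shares are higher in every paused library than in any normal library of the same genotype.

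Azin1 also changed its make-up. The decay transcript Azin1-205 went from 13.1% ± 2.09 to 8.17% ± 1.13 of Azin1 TPM in wild-type and from 13.1% ± 0.62 to 7.17% ± 0.45 in KO cells (SD, n = 4). Its relative use changed by -0.59 (adjusted p = 0.00051) and -0.60 (adjusted p = 0.00029), and both calls held in all 7 alternatives. Azin1-208, a short transcript without a coding annotation from the start of the gene, went from 4.20% ± 1.47 to 8.63% ± 1.79 in wild-type and from 3.25% ± 1.54 to 12.0% ± 2.02 in KO cells. Its relative use changed by 1.15 (adjusted p = 0.012) in wild-type and 2.15 (adjusted p = 2.6e-07) in KO cells, and the wild-type call was lost without replicate 2 or 3 (0.092 and 0.46 as adjusted p). Azin1-207, a shorter coding transcript, gained 0.79 in KO cells (adjusted p = 0.0024), which was lost without replicate 1 (adjusted p = 0.085).

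Transcripts of the other genes were read in the same way. The decay transcript Odc1-205 went from 8.34% ± 0.56 to 6.51% ± 0.17 of Odc1 TPM in wild-type cells, a relative change of -0.35 (adjusted p = 0.023) that was lost without any 1 replicate number (adjusted p from 0.062 to 0.13). Srm-202, a non-coding transcript at the 3′ end of Srm, was 4.52% ± 0.49 of Srm TPM in normal and 9.22% ± 0.44 in paused KO cells. It gained 1.08 with pausing in KO cells (adjusted p = 0.0095), a call lost without replicate 1 or 4 (adjusted p of 0.066 and 0.051), and stood 1.24 above wild type in paused culture (adjusted p = 0.0036). The Oaz1 transcripts on either side of the frameshift annotation shared the gene in every group, with Oaz1-207 at 57.6% ± 1.49 and 52.9% ± 1.08 in wild-type and 59.6% ± 0.13 and 53.7% ± 0.97 in KO cells, and Oaz1-205 at 36.3% to 42.2% as group means. For Sms the decay transcript Sms-204 took 60.3% to 64.6% of TPM as group means, more than the coding Sms-201 at 26.2% to 33.0%, and neither passed the test of use in any comparison. The identical pseudogene Sms-ps is left out of these shares, and the part of reads shared with it in this split was not tested. Smox-201, a coding transcript, went from 14.2% (8.25% to 20.4%) to 27.5% (24.4% to 31.0%) of Smox TPM in wild-type cells and from 22.3% (18.5% to 26.9%) to 28.6% (21.9% to 43.4%) in KO cells. The wild-type groups did not overlap, but its relative use of 0.67 did not pass (adjusted p = 0.28), and no Smox transcript passed in any comparison. Oaz1-206, a retained-intron transcript under 5% of Oaz1 that was picked after its values were seen, gained 0.99 (adjusted p = 1.9e-06) in wild-type and 1.21 (adjusted p = 4.2e-09) in KO cells.

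The genes around the pathway were read from 4 lists with 30 genes, of which Arg1, the cytosolic arginase, was too low to test. Pausing raised 6 and lowered 16 of the other 29 in wild-type cells, and raised 5 and lowered 18 in KO cells. Of all genes tested, 33.3% rose and 27.5% fell in wild-type cells, and 34.4% rose and 32.8% fell in KO cells. Their median log2 fold changes were -0.25 and -0.24, against 0.04 and 0.02 over all genes. KO cells held 13 of them higher and 10 lower than wild-type cells in normal culture and 10 higher and 14 lower in paused culture, where all genes gave 34.1% and 34.1% in normal and 30.8% and 34.5% in paused culture. The difference of the pausing responses passed for 18 of the 29, 6 higher and 12 lower, against 41.9% of all genes.

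In the list of ornithine and arginine supply, none of the 6 genes tested rose under pausing, while 5 fell in wild-type cells (27.5% of all genes) and 4 in KO cells (32.8% of all genes). Aldh18a1, which makes the precursor of ornithine from glutamate, was 84.2 ± 14.5 and 35.7 ± 0.97 CPM in wild-type normal and paused culture and 195 ± 11.8 and 194 ± 19.1 CPM in KO cells (SD, n = 4). Its response was -1.24 (SE 0.10, adjusted p = 2e-08) in wild-type and -0.0025 (SE 0.10, adjusted p = 0.99) in KO cells, a difference of 1.23 (adjusted p = 4.5e-06). Slc7a1, the main importer of arginine, was 157 ± 12.1 and 86.2 ± 6.08 CPM in wild-type and 352 ± 34.7 and 354 ± 34.5 CPM in KO cells. Its responses were -0.87 (adjusted p = 8.1e-08) and 0.01 (adjusted p = 0.94), a difference of 0.87 (adjusted p = 1.5e-05). Both genes were higher in every KO library than in any wild-type library.

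Other supply genes moved otherwise. Arg2, the mitochondrial arginase, was 2.50 to 3.27 CPM in wild-type normal and 0.252 to 0.339 CPM in KO normal libraries, a difference of -3.21 (SE 0.19, adjusted p = 3.4e-11). Slc25a15, the mitochondrial carrier of ornithine, fell by 0.46 in wild-type and 0.88 in KO cells, and Oat, which turns ornithine to glutamate semialdehyde, by 0.15 and 0.53. Agmat, which can make putrescine from agmatine, was 0.521 to 1.06 CPM in normal and 0.0598 to 0.138 CPM in paused wild-type libraries, near the lower end of what was tested, and fell by 2.82 (SE 0.37, adjusted p = 2.5e-06).

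In the list of antizymes, breakdown and transport, 4 of 10 genes rose and 3 fell under pausing in each genotype, near the shares over all genes (33.3% and 27.5% in wild-type, 34.4% and 32.8% in KO cells). Azin2, a second antizyme inhibitor, rose by 0.73 (SE 0.08) in wild-type and 0.79 (SE 0.08) in KO cells, and Paox, which oxidises acetylated polyamines, by 0.68 (SE 0.06) and 0.37 (SE 0.06), with adjusted p of at most 1.4e-05. Atp13a2, a lysosomal polyamine exporter, was 33.5 ± 3.21 and 58.5 ± 1.35 CPM in wild-type and 58.6 ± 1.60 and 64.3 ± 1.69 CPM in KO cells, so that normal KO libraries already stood where paused wild-type ones did. Its responses of 0.81 and 0.13 differed by -0.67 (adjusted p = 1.1e-06). Oaz3, another antizyme, was at most 0.586 CPM in any library, and its difference of KO from wild type in normal culture was -0.87 (SE 0.24, adjusted p = 0.004). Oaz2, a second antizyme, fell by 0.25 in wild-type and 0.99 in KO cells, a difference of -0.74 (adjusted p = 4.4e-07). Sat2, a relative of Sat1, rose by 0.89 (SE 0.14, adjusted p = 1.4e-05) in KO cells and was at 0.21 (adjusted p = 0.24) in wild-type cells. Slc3a2, a partner chain of amino acid exchangers that is linked to polyamine transport, fell by 0.45 and 0.12. Aoc1, which oxidises putrescine, was at most 0.502 CPM in any library, and its log2 difference of KO from wild type in normal culture was -2.17 (adjusted p = 0.00028).

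Of 9 genes of S-adenosylmethionine supply and methylthioadenosine salvage, 6 were lowered and 1 raised in wild-type cells, and 8 were lowered in KO cells, where 27.5% and 32.8% of all genes fell. Mtap, which clears the by-product of spermidine and spermine synthesis, fell by 0.92 (SE 0.05) in wild-type and 0.80 (SE 0.05) in KO cells, Ahcy, which clears S-adenosylhomocysteine, by 0.77 (SE 0.09) and 1.32 (SE 0.09), and Adi1, a later salvage enzyme, by 0.63 and 0.59. Enoph1 of the same salvage route fell by 0.55 and 0.24. Mat2a, which makes S-adenosylmethionine, had responses of -0.09 (adjusted p = 0.077) in wild-type and -0.55 in KO cells, a difference of -0.46 (adjusted p = 7.3e-06). Of the 4 hypusine genes 2 fell in wild-type and 3 in KO cells, and Eif5a2 rose in both (0.31 and 0.23), beside the same shares over all genes. Eif5a, the translation factor that carries hypusine, a residue made from spermidine, went from 1411 ± 29.3 to 901 ± 31.5 CPM in wild-type and from 1217 ± 31.1 to 617 ± 49.8 CPM in KO cells. Dhps, which transfers the spermidine residue, stood at -0.21 (adjusted p = 0.080) in wild-type cells and at -0.62 (adjusted p = 4.5e-05) in KO cells.

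**Figure D5:**
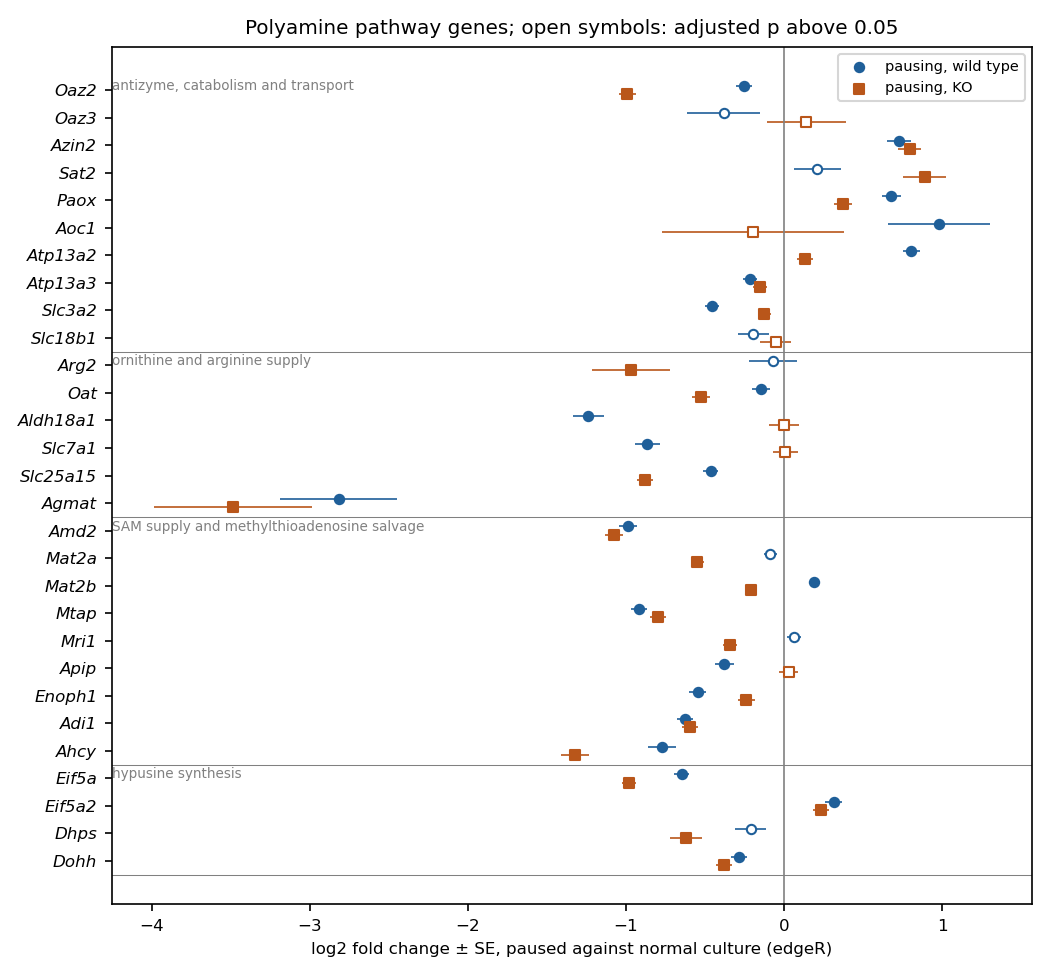
Log2 fold changes with SE (horizontal axis) of 29 pathway genes for paused against normal culture in wild-type (circles) and KO cells (squares), grouped by list. Filled symbols passed an adjusted p of 0.05, and Aldh18a1 and Slc7a1 lie left of 0 in wild-type and at 0 in KO cells.

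MYC family genes, the textbook regulators of Odc1, were read beside it. Of 8 genes of the network, pausing raised 6 and lowered 1 in wild-type cells, and it raised 3 and lowered 3 in KO cells. Over all genes 33.3% rose and 27.5% fell in wild-type and 34.4% and 32.8% in KO cells, so the KO counts are near those shares. In wild-type libraries Myc was 80.7, 94.7, 120 and 120 CPM in normal and 166, 160, 173 and 167 CPM in paused culture, a rise of 0.68 (SE 0.14, adjusted p = 0.00086). In KO libraries it was 67.0, 69.6, 86.9 and 91.3 CPM and then 61.5, 46.4, 69.4 and 52.9 CPM, a fall of 0.45 (SE 0.15, adjusted p = 0.013) with overlapping groups. Mycn had responses of -0.56 (SE 0.11, adjusted p = 0.00023) in wild-type and 0.51 (SE 0.11, adjusted p = 0.00053) in KO cells. In wild-type libraries it was 238.5 to 261.9 CPM in normal and 142.6, 141.7, 198 and 189.2 CPM in paused culture. Replicates 1 and 2 of paused culture thus lay farther below normal culture than replicates 3 and 4. Odc1 fell in both genotypes, so in wild-type cells it moved with Mycn and against Myc. In KO cells it moved with Myc and against Mycn. The part of these genes in the Odc1 values was not tested. Mnt, a MAX partner that represses MYC targets, rose by 0.74 (SE 0.04) and 0.71 (SE 0.04) in the 2 genotypes. Of the other partners and relatives, Mycl was higher in KO than in wild-type cells in normal culture by 1.21 and Mxi1 by 0.60. Mxd3 and Mxd4 were lower in KO cells in paused culture, at -0.83 and -0.83.

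Genes whose pattern over the 16 libraries lay nearest to each of the 8 were sought by the root-mean-square difference of centred log2 CPM among 9157 genes. For Odc1 they were Lamtor4, at 0.03, Cfl1 and Bzw2. For Oaz1 they were Rpl36al, at 0.05, Snrpd1 and Wdr3, and for Amd1 Minos1, at 0.05, Hmgn1 and Bola3. Srm was nearest to Slc25a5 (0.09), Arhgdia and Sssca1, and Smox to Hspa14 (0.09), Psmb2 and Atp5mpl. Copg1 (0.05) and Mcm2 were among the nearest to Sat1. Azin1 was nearest to Ash2l (0.06), Wwc2 and Ddx11, and Sms to Hsf2 (0.13), Lims1 and Serinc1. Among the 8 themselves Amd1 and Oaz1 were closest, at 0.12, followed by Odc1 and Amd1 at 0.15, and Sms and Smox were farthest apart at 0.59. All points of such a pattern come from the same 4 groups, and likeness of pattern is a description with no test.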

How the data were processed

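Poly(A) RNA of 16 ESC libraries, 4 per group, was analysed from the transcript tables deposited by the authors. Per the submitters' processing notes the authors ran kallisto on GRCm38, with no version stated in those notes. Per the labels RNA came from RNeasy columns and poly(A) selection. The authors deposited estimated counts (expected counts) and TPM per transcript, per the file headers. Estimated counts were summed per gene after matching 116728 of 118489 transcripts to GENCODE M21, which left out 0.657% to 0.712% of counts, and rounded to whole numbers. Genes were filtered with filterByExpr (minimum count 10), scaled by TMM and tested with edgeR 4.0.16 (robust quasi-likelihood, Benjamini-Hochberg adjusted over 18944 genes, threshold 0.05) in 1 fit of all 4 groups in R 4.3.3. Biological coefficient of variation was 0.0852. Transcript use was tested with diffSpliceDGE. CPM was computed from the counts and the TMM scale. Scripts were tested on simulated data.

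The 8 genes, the lists and the tests were chosen with earlier results of these data known. The text names the 8 genes, Dgcr8, list genes that passed with a log2 fold change of at least 0.5 in some comparison (others are named where a count calls for them, after their values were seen), transcripts of at least 5% of their gene and the 3 nearest genes by pattern, of which 1 is not reported here. Copies were found by sequence (at least 90% identity over 500 bases). Alternatives were DESeq2 1.42.0 size factors and Wald test, no filter, length-scaled TPM counts, coding transcripts alone, copies added, a replicate block, a term for replicates 1 and 2 against 3 and 4, fits of fewer libraries and each library left out. No batch is labelled. Intervals are 95% intervals of the fit.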

Additional observations from a re-analysis of the deposited data

Results flagged for a closer look

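The response to pausing differed between the genotypes for Odc1, by -0.42 on the log2 scale (KO minus wild type, SE 0.06, adjusted p = 1.9e-05). All 4 paused libraries were lower than all 4 normal libraries in both genotypes. The same test separated the responses of Sms, by 0.59 (SE 0.08, adjusted p = 1.4e-05), with Sms-ps sharing 1101 identical bases with it.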

How the results depend on the processing

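For the 8 genes, 1078 of 1112 values under other settings kept direction and side of the threshold, 21 lost the call, 10 gained one and 3 reversed. Counting only protein-coding transcripts turned Sat1 under pausing in wild-type cells to -0.23. Adding named copies turned Sms under pausing in KO cells to -0.15, and adding all copies found by sequence, chosen after seeing the data, also gave -0.15. Of 445 counts of called genes or transcripts, 440 stayed within 1.5 times the reported count. The other 5 were transcript calls with 1 replicate number left out, where 1 to 3 (reported 4) of the 28 transcripts were called for pausing in wild-type and 2 to 4 (reported 6) in KO cells. Of 224 values of transcript use 203 kept their side of the threshold and 21 lost the call. Same-numbered libraries correlated between -0.23 and 0.42 over 9534 genes. Libraries with different numbers were not compared in this way, so these values do not settle whether replicate numbers pair the libraries. With a replicate block 7 of the 8 genes were called for pausing in wild-type cells (61.2% of all genes) and 6 in KO cells (67.5%), where Sat1 lost its call (adjusted p = 0.051). For the difference of responses 3 were called (42.7%), where Amd1 gained a call (-0.13, adjusted p = 0.022), and 7 for each comparison of the lines (68.7% and 65.7%). Sat1-206 use in KO cells lost its call (adjusted p = 0.053). Replicates 1 and 2 stood apart from 3 and 4 in 3 groups, by median chi-square (0.455 for sampling noise): 2.44 and 2.07 within and 9.26 to 13.0 across these pairs in wild-type normal, 2.02 and 1.28 within and 3.44 to 4.45 across in wild-type paused, and 2.71 and 1.92 within and 3.49 to 5.58 across in KO normal culture. In KO paused culture the values were 3.15 and 3.38 within and 2.12 to 4.98 across. No library was a repeat of another. Counts were low for Agmat, Arg1, Aoc1 and Oaz3, which limits their precision.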
